A study of Homo sapiens with 32 samples.

Results

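XRCC4 knockout (KO) and wild-type (WT) MCF10A cells were compared 5 days after 10 Gy of ionising radiation, across all genes. The comparison used 4 of the 32 libraries of the series, 2 of XRCC4 KO and 2 of WT, chosen by their labels and not by any measured value. MCF10A is a non-transformed line of human breast epithelium, and the RNA was selected for poly-A tails. The WT cells had been irradiated with DMSO, the vehicle, and the labels name no vehicle for the knockout. Further groups of 2 libraries each from the same experiment set the levels in context: WT cells without irradiation, and cGAS KO and STING KO cells 5 days after 10 Gy. The estimate of the spread also used WT cells 3 days after 10 Gy with DMSO. It used WT cells 5 days after 10 Gy with a CDK1 inhibitor as well. Knockout lines had been made with lentiviral Cas9 and guide vectors under antibiotic selection and grown out from single seeded cells. The labels do not name the clone or say how many were used, do not say whether the WT cells carried a vector, and include no XRCC4 KO cells without irradiation. The effect of the genotype therefore cannot be told apart from a difference between the clone and its parent line that was present before irradiation. XRCC4 KO and WT cells collected 3 days after 10 Gy, in a separate experiment of the series with no vehicle named, gave the closest comparison. The estimate of the spread there also used p53 KO and XRCC4 p53 double KO cells 3 days after 10 Gy. It further used XRCC4 KO and double KO cells given the same dose and an ATR inhibitor.

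XRCC4 is the scaffold that holds DNA ligase IV in the last step of classical non-homologous end joining, the main route by which human cells rejoin broken DNA ends outside S phase. Cells that divide with unrepaired breaks can form micronuclei, and the DNA in them can be read by cGAS, an enzyme whose product activates STING, which in turn activates the transcription factors IRF3 and NF-kB. Type I and type III interferons made downstream act through their receptors to switch on the interferon-stimulated genes. In parallel, DNA damage stabilises p53, which raises CDKN1A (p21), and p21 represses the genes needed for mitosis. The design text of the series states that the experiment concerned how arrest of the cell cycle, or loss of cGAS or STING, affects inflammatory signalling after irradiation.

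Library totals ran from 11403683 to 16273395 estimated counts over the 4 libraries and from 5590077 to 18586016 over the series. The 2 WT libraries at 5 days stood further apart than the 2 XRCC4 KO libraries: the chi-square between replicates was 32.7 per gene compared in WT and 3.38 in XRCC4 KO, and the mean log2 of the counts per 1000000 counts (CPM) of the interferon-stimulated genes was 8.07 and 6.60 in WT against 4.54 and 4.57 in XRCC4 KO. Counts of list members called are therefore also given with each of the 4 libraries left out, in the order WT replicate 1, WT replicate 2, XRCC4 KO replicate 1 and XRCC4 KO replicate 2. A left-out library leaves its group with 1 sample, which is then assumed to vary like the other groups, and in statements on left-out libraries the value or range after a gene is its adjusted p in those fits. The labels do not say whether replicates were separate cultures, so p-values measure the spread between these libraries, which may be technical. Basal breast epithelial markers were high in all 4 libraries, with KRT5 at 4606 and 3849 CPM in WT and 8979.7 and 8526 in XRCC4 KO. Defining markers of other cell types were at or near 0: no count was found for RPE65 (retinal pigment epithelium) or HBB (red cells), and PTPRC (leukocytes) had 7 counts over the 4 libraries. CD14, a monocyte marker, is an exception described below, and DCN, a fibroblast marker, stood at 36.8 and 271 CPM in WT and 37.99 and 42.4 in XRCC4 KO. In bulk RNA, fewer cells with a transcript and less of it per cell cannot be told apart. CPM values are given in the order replicate 1 and replicate 2, and a value after ± is the standard error of a log2 fold change.

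The targeted gene was read first. XRCC4 mRNA (ENSG00000152422, chromosome 5, 82348665 to 82649606, hg19, the deposited interval) was at 7.63 and 6.37 CPM in XRCC4 KO and at 9.62 and 7.41 in WT. The ranges of the groups overlapped, and the log2 fold change of -0.28 ± 0.23 did not pass (edgeR quasi-likelihood F test, Benjamini-Hochberg adjusted p = 0.397). A small edit need not lower an mRNA, so this level does not check the label. The labels of the other lines could be read: MB21D1, which encodes cGAS, was at 1.24 and 1.30 CPM in cGAS KO and 17.2 and 15.1 in WT, and TMEM173, which encodes STING, was at 9.97 and 9.16 CPM in STING KO and 83.4 and 53 in WT. XRCC4 KO cells kept both sensors' transcripts, with MB21D1 at 11.01 and 10.7 CPM and TMEM173 at 59.4 and 70.02.

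Among 15190 genes tested, 1808 were called higher and 1844 lower in XRCC4 KO than in WT at an adjusted p below 0.05, which is 11.9% and 12.1% of genes and 24% in both directions together. The median log2 fold change over all tested genes was -0.03. The balance of the directions rests on the scaling. With library totals in place of TMM factors the median of all genes shifted by -0.16 and 1024 genes were higher against 2787 lower (26.9% of calls higher, against 49.5% with TMM), and with log2(FPKM + 0.1) it shifted by -0.24, with 426 higher and 2044 lower. Changes are described relative to the TMM scale. Every count of list members called against WT at 5 days is to be read beside the 11.9% of all genes higher and 12.1% lower. With 1 library left out the counts fell to between 750 and 968 higher and between 570 and 1090 lower. When only the irradiated 5-day groups without the CDK1 inhibitor were fitted, a choice made after seeing the data, 2618 genes were higher and 2657 lower. The groups did not overlap, with both XRCC4 KO libraries above or below both WT libraries, for 34.5% of genes in the upward and 37.7% in the downward direction.

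**Figure D1:**
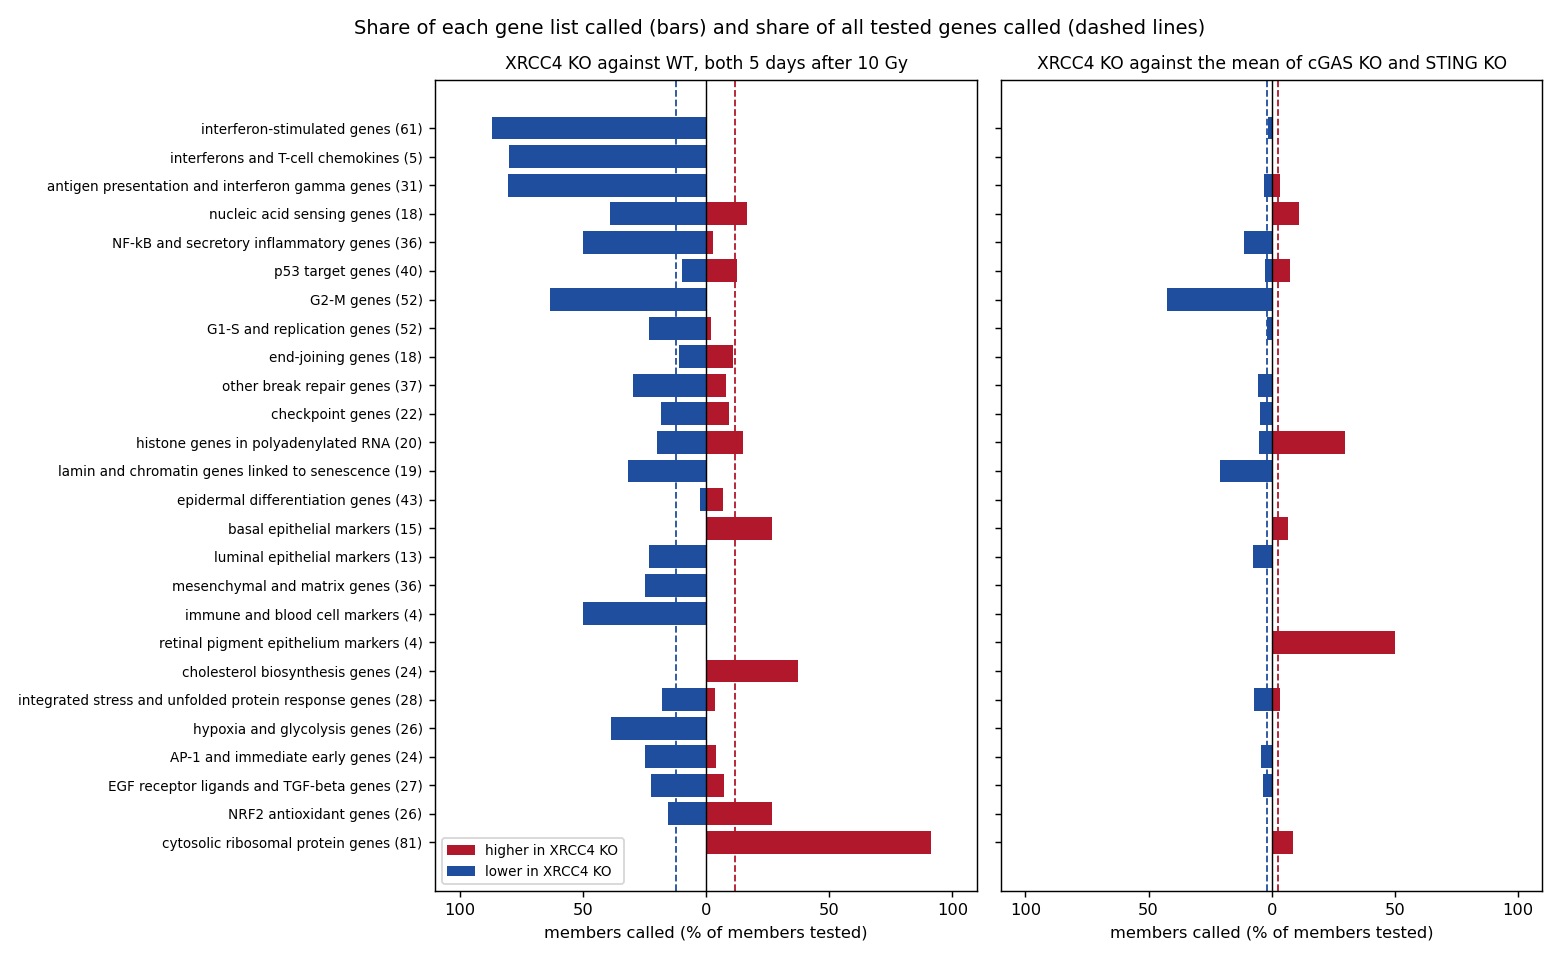
Share of the tested members of each gene list (bars, in %, number tested in parentheses) that was called higher (right, red) or lower (left, blue) in XRCC4 KO 5 days after 10 Gy, against WT (left panel) and against the mean of cGAS KO and STING KO (right panel). Dashed lines mark the share of all tested genes called in that direction. The interferon-stimulated genes reach far past the dashed line only in the left panel, while the G2-M genes do so in both.

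The interferon-stimulated genes were low in irradiated XRCC4 KO cells. Of 61 tested members of a list of 62, 53 were called lower and 0 higher, beside 12.1% of all genes called lower, and their median log2 fold change was -2.76. The list takes in antiviral effectors, RNA sensors and the factors that carry the interferon signal, and members of every kind fell. Many of these genes carry the interferon-stimulated response element in their promoter, a site read by transcription factors of the IRF family. The letters GAAA, any 2 bases and again GAAA, on either strand, were found in the RefSeq promoter windows (GRCh38.p14, 250 bases before to 50 after the start) of 30 of 51 list members with a window, or 58.8%, against 3.57% of all 35116 windows. The list share counts 1 window a gene, while the share of all windows counts every window and was not reduced to 1 a gene. A match describes the letters and is not evidence of binding. The members called lower held it in 56.8% of 44 windows and the members not called lower in 71.4% of 7. The 120 bases before the start are shown for the 4 called members with the largest fall whose stretch holds the motif, with the motif in capitals, because they show how 1 or 2 copies lie near the start. The windows are chr11:313920-314039 on the plus strand for IFITM1, chr4:88456999-88457118 on the plus strand for HERC5, chr10:89392503-89392622 on the plus strand for IFIT1 and chr1:27672193-27672312 on the minus strand for IFI6.
IFITM1: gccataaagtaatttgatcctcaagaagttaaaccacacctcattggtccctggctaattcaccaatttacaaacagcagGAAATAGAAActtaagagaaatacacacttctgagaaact
HERC5: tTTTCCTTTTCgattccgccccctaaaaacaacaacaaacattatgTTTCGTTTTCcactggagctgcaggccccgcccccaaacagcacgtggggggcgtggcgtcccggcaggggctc
IFIT1: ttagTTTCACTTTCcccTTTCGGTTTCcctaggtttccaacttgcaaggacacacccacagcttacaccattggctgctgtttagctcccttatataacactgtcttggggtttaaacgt
IFI6: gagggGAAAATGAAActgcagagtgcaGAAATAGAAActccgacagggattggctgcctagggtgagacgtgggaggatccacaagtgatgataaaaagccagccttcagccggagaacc

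IFIT1 (ENSG00000185745, chromosome 10, 90973326 to 91174314), an RNA-binding protein that blocks translation of viral RNA, was at 41.3 and 38.5 CPM in XRCC4 KO and at 1138 and 279 in WT. Both XRCC4 KO libraries lay below both WT libraries, and the WT libraries themselves differed several-fold. The log2 fold change was -4.15 ± 0.93 (adjusted p = 0.0125). MX1 (ENSG00000157601, chromosome 21, 42792231 to 42831141), a GTPase that traps viral nucleocapsids, was at 0.173 and 0.868 CPM against 355 and 88.3, a log2 fold change of -8.75 ± 1.33 (adjusted p = 0.0024). In XRCC4 KO it was also no higher than in untreated WT cells, at 2.64 and 1.52 CPM. IFITM1 (ENSG00000185885, chromosome 11, 307631 to 315272), which blocks virus entry at the membrane, was at 1.91 and 1.93 CPM against 399 and 143 (log2 fold change -7.13 ± 0.87, adjusted p = 0.000955). It has close relatives in IFITM2 and IFITM3, between which reads could be split. ISG15, a ubiquitin-like modifier, was at 24.02 and 24.02 CPM against 567 and 151 (log2 fold change -3.90 ± 0.77, adjusted p = 0.00729). The RNA sensor DDX58 (RIG-I) was at 36.6 and 36.8 CPM against 551 and 185 and had a log2 fold change of -3.32 ± 0.64 (adjusted p = 0.00657). IFIH1 (MDA5), the sensor of long double-stranded RNA, was at 30.3 and 30 against 256 and 74.2 (log2 fold change -2.45 ± 0.59, adjusted p = 0.0165). In these 6 genes the groups did not overlap and WT replicate 1 was the higher of the WT libraries.

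LAMP3, a lysosomal membrane protein of activated cells, was close to absent, with 2 and 0 counts in XRCC4 KO and 2239 and 406 in WT, a WT to XRCC4 KO ratio of 922 (95% counting interval 255 to 7615). CMPK2, a nucleotide kinase next to the antiviral gene RSAD2, had 0 and 1 counts against 957 and 257, a ratio of 846 (152 to 33446). Such ratios cover counting error only. Further members were called lower, with log2 fold changes of XAF1 (-6.18), RSAD2 (-5.38), OAS2 (-5.17), BST2 (-4.74), USP18 (-3.66), IRF7 (-2.84) and IRF9 (-1.19), where OAS2 makes the second messenger of RNase L, USP18 is the feedback inhibitor of the interferon receptor and IRF7 and IRF9 are transcription factors of the pathway. With WT replicate 1, WT replicate 2, XRCC4 KO replicate 1 or XRCC4 KO replicate 2 left out, 35, 56, 24 and 24 members were called lower and 0 higher, and in a fit of the 4 libraries alone 23 were. The calls of MX1, IFITM1, LAMP3 and CMPK2 held with any 1 of the 4 libraries left out. IFIT1 (0.0692 to 0.1) and IFIH1 (0.103 to 0.107) did not pass without WT replicate 1 or either XRCC4 KO library. ISG15 (0.0668 to 0.0682) and DDX58 (0.0611 to 0.0614) missed the threshold without either XRCC4 KO library.

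**Figure D2:**
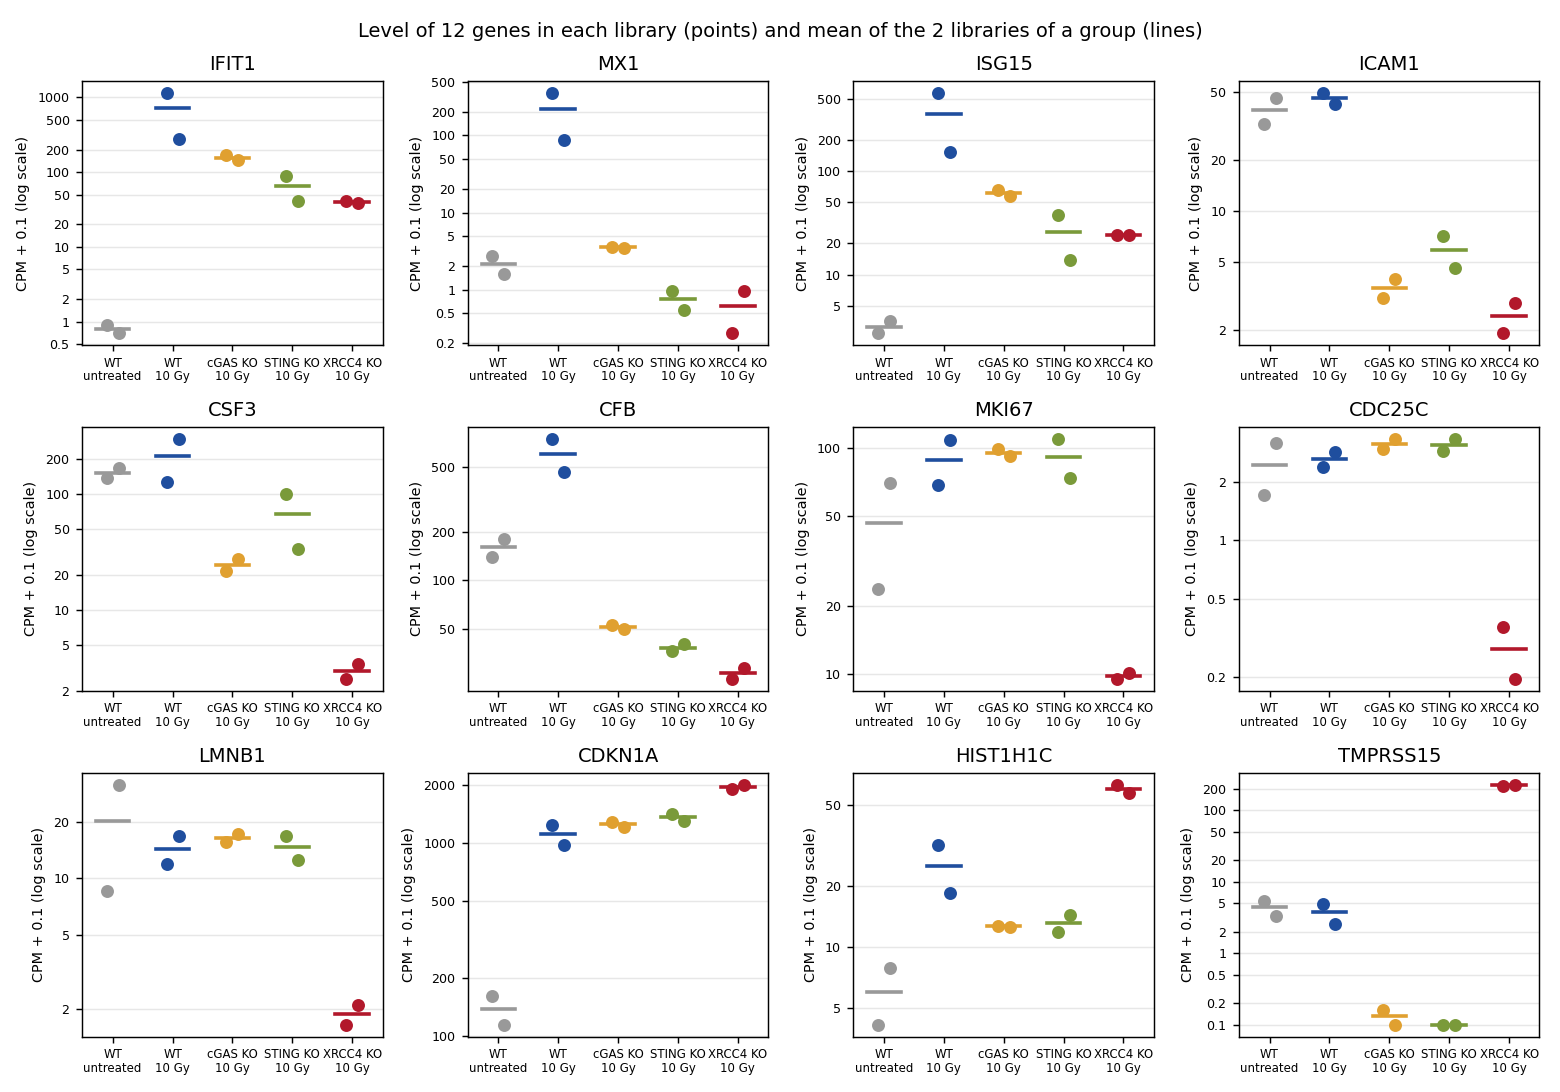
CPM + 0.1 on a log axis for 12 genes in untreated WT cells and in WT, cGAS KO, STING KO and XRCC4 KO cells 5 days after 10 Gy. Points are the 2 libraries of a group and lines their mean. IFIT1, MX1 and ISG15 are highest in irradiated WT, MKI67, CDC25C and LMNB1 are lowest in XRCC4 KO, and TMPRSS15 is high there alone.

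XRCC4 KO cells still held interferon-stimulated transcripts above the level of unirradiated WT cells. Over the 61 members the mean log2 CPM was 4.54 and 4.57 in XRCC4 KO and 3.45 and 3.37 in untreated WT, with 28 members called higher (22.8% of all genes were) and 4 lower (23.5%), and a median log2 fold change of 1.15. IFIT1 was at 0.805 and 0.607 CPM in untreated WT, and its level in XRCC4 KO was higher, by a log2 fold change of 5.77 ± 1.29 (adjusted p = 0.00606). It missed the threshold without untreated WT replicate 1 (adjusted p = 0.0502). Genotype and radiation differ together in this comparison. The mean level in cGAS KO was 5.58 and 5.45 and in STING KO 5.01 and 4.41. Against the mean of these 2 lines, a comparison added after the data had been seen, 364 genes were called higher (2.4%) and 275 lower (1.81%, 4.21% together), and among the interferon-stimulated genes 0 were higher and 1 was lower, IFITM3, named after its value was seen, with a log2 fold change of -1.95. At an unadjusted p below 0.05 edgeR gave 0 higher and 4 lower, and DESeq2 called 0 and 3 at an adjusted p below 0.05. That call was lost without either XRCC4 KO library (0.0967 to 0.1). The list's median log2 fold change there was -0.50. IFIT1 was at 166 and 144 CPM in cGAS KO and 88.5 and 40.8 in STING KO. A p that misses the threshold does not show that the 3 knockout lines have the same level, and the calls of this comparison were sensitive to single libraries: without 1 XRCC4 KO library 17 or 12 genes were called higher and 4 or 3 lower.

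**Figure D3:**
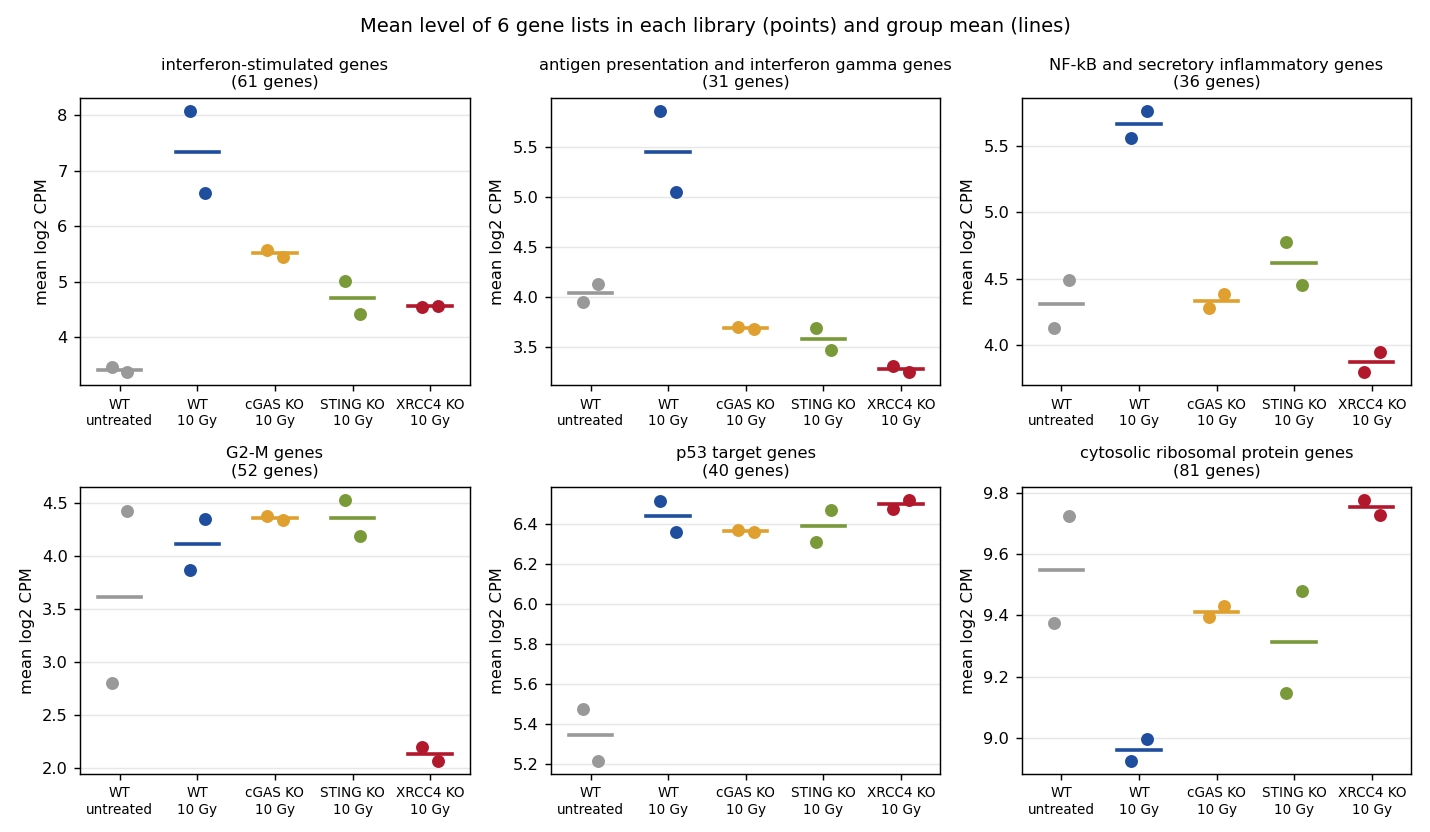
Mean log2 CPM of 6 gene lists (number of genes in parentheses) in each library (points) with the group mean (lines), for untreated WT and for WT, cGAS KO, STING KO and XRCC4 KO 5 days after 10 Gy. The interferon-stimulated list is at 4.54 and 4.57 in XRCC4 KO against 8.07 and 6.60 in irradiated WT, and the G2-M list is at 2.19 and 2.07 against 3.86 and 4.35.

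The secreted end of the response was low as well. CXCL10, a chemokine that draws T cells, was at 0.607 and 0.289 CPM in XRCC4 KO and 13.5 and 2.73 in WT (log2 fold change -4.12 ± 0.93, adjusted p = 0.0111). CCL5, which draws T cells and monocytes, was at 0.347 and 0.193 against 8.11 and 2.37 (log2 fold change -4.21 ± 0.93, adjusted p = 0.00936). CXCL11, a further ligand of the CXCL10 receptor, had 0 and 3 counts against 236 and 91, a WT to XRCC4 KO ratio of 76.0 (95% counting interval 25.8 to 370.3). IFNL1, a type III interferon, was at 0.173 and 0.193 CPM against 4.33 and 0.830 (log2 fold change -3.74 ± 0.999, adjusted p = 0.0246). These 4 are the called genes among the 5 of 10 listed interferons and chemokines that passed the filter on low counts. All are below 1 CPM in XRCC4 KO, and WT replicate 1 was several-fold above WT replicate 2 in each. With the libraries left out in turn 1, 4, 0 and 1 of the list were called lower. CXCL10 (0.0667 to 0.0991), CCL5 (0.0593 to 0.0883) and IFNL1 (0.133 to 0.191) did not pass without WT replicate 1 or either XRCC4 KO library. CXCL11 (0.0565) missed the threshold without XRCC4 KO replicate 1.

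Antigen presentation genes fell together with them. Of 31 tested members of 37, 25 were called lower and 0 higher, with a median of -1.57 and 23, 28, 17 and 18 members lower without each library in the same order as above. Class I heavy chains and their partners fell, with log2 fold changes of HLA-B (-4.20), HLA-C (-1.55), B2M (-1.57), TAP1 (-1.81), PSMB8 (-2.12) and PSMB9 (-6.15). TAP1 carries peptides into the endoplasmic reticulum, and PSMB8 and PSMB9 are subunits of the immunoproteasome. HLA genes are polymorphic and near-identical, so counts can be split or lost between them. NLRC5, the activator of class I genes, changed by -4.43 on the log2 scale, and CIITA (ENSG00000179583, chromosome 16, 10958771 to 11036878), the activator of class II genes, was at 0 and 0.0964 CPM in XRCC4 KO against 6.39 and 4.56 in WT. Its WT to XRCC4 KO ratio was 118 (95% counting interval 20.98 to 4707) from 1 count. CD74 (ENSG00000019582, chromosome 5, 149781200 to 149792492), the invariant chain of class II, had 0 counts in both XRCC4 KO libraries and 64 and 86 in WT, so it was at least 34.8-fold lower when 3 counts are assumed for the group. The untreated WT cells held it at 0.439 and 0.506 CPM. CD274 (PD-L1), which binds PD-1 on T cells, changed by -3.47 on the log2 scale. GBP5, a guanylate-binding protein induced by interferon gamma, was at 0.173 and 0 CPM against 7.83 and 8.24, and the WT libraries were close to each other in this gene. The calls of CIITA, CD74 and GBP5 held with any 1 of the 4 libraries left out. Against untreated WT, 14 of the 31 members were lower and 4 higher, beside 23.5% and 22.8% of all genes. The mean log2 CPM of the list was 3.31 and 3.24 in irradiated XRCC4 KO cells, below the 3.95 and 4.13 of unirradiated WT cells.

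Nucleic acid sensing genes changed in both directions. Among 18 tested members 7 were lower (38.9%, beside 12.1% of all genes) and 3 higher (16.7%, beside 11.9%), and their median was -0.07. Left out in turn, the libraries gave 5, 6, 4 and 4 lower and 1 higher each time. Several of those called lower are known as interferon-induced genes themselves. SAMHD1 (ENSG00000101347, chromosome 20, 35504524 to 35580246), which degrades deoxynucleotides, was at 15.8 and 13.3 CPM against 247 and 108 (log2 fold change -3.61 ± 0.44, adjusted p = 0.000901). TREX1 (ENSG00000213689, chromosome 3, 48488114 to 48509044), the exonuclease that clears cytosolic DNA, was at 2.34 and 2.12 against 19.2 and 8.71 (log2 fold change -2.63 ± 0.44, adjusted p = 0.00263). TLR3, an endosomal receptor for double-stranded RNA, was at 14.4 and 15.7 against 87 and 38.2 (log2 fold change -2.05 ± 0.35, adjusted p = 0.00354). IFI16, a DNA-binding sensor, was at 143 and 139.8 against 535 and 378 (log2 fold change -1.69 ± 0.17, adjusted p = 0.000361). In each, both WT libraries were above both XRCC4 KO libraries. In the other direction, IRF3 (ENSG00000126456, chromosome 19, 50162826 to 50177173), the transcription factor activated through STING, was at 110.1 and 109.6 CPM against 57.9 and 62.9 (log2 fold change 0.86 ± 0.11, adjusted p = 0.000656). ENPP1, the enzyme that hydrolyses the cGAS product, was at 4.34 and 4.34 against 1.51 and 1.30 (log2 fold change 1.62 ± 0.47, adjusted p = 0.0306). MB21D1 itself was called at a log2 fold change of -0.57 ± 0.19 (adjusted p = 0.0492), though not by DESeq2, and TMEM173 was not called (log2 fold change -0.08 ± 0.21, adjusted p = 0.823). The calls of SAMHD1, TREX1, TLR3, IFI16 and IRF3 held with any 1 of the 4 libraries left out. ENPP1 (0.0968 to 0.149) and MB21D1 (0.0988 to 0.215) did not pass with any 1 of the 4 libraries left out.

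Inflammatory genes of the NF-kB and secretory group were lower in XRCC4 KO. Of 36 tested members of 40, 18 were called lower and 1 higher, with a median of -1.86. ICAM1 (ENSG00000090339, chromosome 19, 10362577 to 10399695), an adhesion molecule and NF-kB target, was at 1.82 and 2.80 CPM in XRCC4 KO and 49 and 42.03 in WT. The WT libraries agreed closely here, and the log2 fold change was -4.30 ± 0.32 (adjusted p = 0.00012). CFB (ENSG00000243649, chromosome 6, 31865562 to 31919861), complement factor B, was at 24.4 and 28.6 against 751 and 464 (log2 fold change -4.52 ± 0.43, adjusted p = 0.00037); its deposited interval overlaps neighbouring complement genes. CSF3 (ENSG00000108342, chromosome 17, 38171614 to 38174066), the granulocyte colony-stimulating factor, was at 2.43 and 3.28 against 126 and 299.7 (log2 fold change -6.22 ± 0.72, adjusted p = 0.000786). The neutrophil chemokine CXCL8 was at 6.33 and 6.66 against 91.5 and 154 (log2 fold change -4.24 ± 1.13, adjusted p = 0.026), and CXCL1 (-3.50), CXCL3 (-3.18), CCL20 (-2.92), SOD2 (-2.23) and BIRC3 (-1.72) were called lower too, with their log2 fold changes in parentheses. In CSF3 and CXCL8 it was WT replicate 2 that was higher, the reverse of the interferon-stimulated genes. IL6 had 0 counts in XRCC4 KO and 7 and 18 in WT and was not called (adjusted p = 0.121), and IL1B was at 67.8 and 80.4 CPM against 88.9 and 136 (log2 fold change -0.60 ± 0.49, adjusted p = 0.404), also not called. IGFBP7, an insulin-like growth factor binding protein, was the member called higher, at 37.8 and 36.7 against 14.7 and 20.2 (log2 fold change 1.09 ± 0.35, adjusted p = 0.0457). The calls of ICAM1, CFB and CSF3 held with any 1 of the 4 libraries left out. CXCL8 (0.0558 to 0.145) and IGFBP7 (0.0911 to 0.208) did not pass with any 1 of the 4 libraries left out. Without each library in turn 14, 13, 10 and 12 members were called lower and 0 higher.

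Beside unirradiated WT cells the inflammatory list went both ways. Of the 36 members 12 were lower and 6 higher in XRCC4 KO, beside 23.5% and 22.8% of all genes, with a median of -0.55. ICAM1 was at 32.2 and 45.6 CPM in untreated WT, 2.97 and 3.90 in cGAS KO and 7.06 and 4.53 in STING KO, so all 3 knockout lines lay below both WT groups. Between XRCC4 KO and the other 2 lines it was not called (log2 fold change -0.95 ± 0.31, adjusted p = 0.105). CSF3 was at 136 and 169 in untreated WT, 21.5 and 27.1 in cGAS KO and 101 and 33.3 in STING KO, and XRCC4 KO differed from the other 2 lines by a log2 fold change of -3.82 ± 0.65 (adjusted p = 0.0177). CSF3 lost this call without either cGAS KO or either XRCC4 KO library (0.0559 to 0.197). The 3 other members called lower against those lines were CCL20 (-1.62), BIRC3 (-1.25) and SOD2 (-0.98), named after their values were seen. With CSF3 that made 4 of 36 lower and 0 higher, beside 1.81% and 2.4% of all genes. CCL20 (0.0834 to 0.299) and BIRC3 (0.0534 to 0.218) lost the call without any cGAS KO or XRCC4 KO library or STING KO replicate 1, and SOD2 (0.0695 to 0.273) with any 1 of the 6 libraries left out. Immune cell markers were read beside this group: of 21, 4 passed the filter and CD14, a receptor that epithelial cells also express, was at 4.77 and 4.05 CPM in XRCC4 KO, 50.4 and 30 in irradiated WT and 78.5 and 75.8 in untreated WT (log2 fold change -3.18 ± 0.43, adjusted p = 0.00124). CD68, a lysosomal protein used as a macrophage marker, was at 33.4 and 35.8 against 74.8 and 63.7 (log2 fold change -1.001 ± 0.23, adjusted p = 0.0119). The defining leukocyte marker PTPRC was at 0 and 0.0964 CPM in XRCC4 KO and 0.206 and 0.178 in WT. The call of CD14 held with any 1 of the 4 libraries left out. CD68 (0.0654 to 0.0858) did not pass without WT replicate 1 or either XRCC4 KO library. Of the 4 immune markers 1, 2, 1 and 1 were called lower in those fits.

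Genes of G2 and mitosis were the second large group that was low in XRCC4 KO. All 52 members of the list passed the filter on low counts; 33 of them were called lower and 0 higher, with a median log2 fold change of -2.35, and in 50 of the 52 both XRCC4 KO libraries lay below both WT libraries, beside 37.7% of all genes. The mean log2 CPM of the list was 2.19 and 2.07 in XRCC4 KO and 3.86 and 4.35 in WT. It was 4.38 and 4.34 in cGAS KO and 4.53 and 4.19 in STING KO, and the untreated WT libraries differed from each other, at 2.80 and 4.42. Against the mean of cGAS KO and STING KO 22 members were lower and 0 higher, with a median of -2.55 and 1.81% of all genes lower. With 1 of those 6 libraries left out between 0 and 8 members were called, and the median stayed between -2.62 and -2.46. The calls against WT depended on the number of libraries: without WT replicate 1, WT replicate 2, XRCC4 KO replicate 1 or XRCC4 KO replicate 2, 19, 5, 1 and 1 members were called lower, while medians stayed between -2.56 and -2.07. In fits of the 4 libraries alone and of the irradiated 5-day groups without CDK1 inhibitor, 48 and 49 members were called lower.

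Promoters of this group often hold the cell cycle genes homology region, through which p53 and p21 repress mitotic genes by way of the DREAM complex. The letters TTTGAA or TTCGAA, on either strand, were searched after the results had been seen. They were found in the windows of 32 of 44 G2-M genes with a window, or 72.7%, and of 16.4% of all windows, and in 79.3% of the 29 members called lower and 60% of the 15 others. For comparison 3 of 43 G1-S genes held them. The 120 bases before the start are shown for the 3 called members with the largest fall whose stretch holds the motif, in capitals: chr14:55191586-55191705 on the minus strand for DLGAP5, a spindle protein, chr10:128126424-128126543 on the minus strand for MKI67, the proliferation marker Ki-67, and chr2:26785936-26786055 on the plus strand for CENPA, the centromeric histone.
DLGAP5: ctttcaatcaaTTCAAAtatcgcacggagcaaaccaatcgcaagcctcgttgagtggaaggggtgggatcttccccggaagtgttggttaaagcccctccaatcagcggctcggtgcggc
MKI67: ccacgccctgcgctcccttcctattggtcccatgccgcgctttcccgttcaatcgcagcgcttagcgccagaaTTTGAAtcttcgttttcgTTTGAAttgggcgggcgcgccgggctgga
CENPA: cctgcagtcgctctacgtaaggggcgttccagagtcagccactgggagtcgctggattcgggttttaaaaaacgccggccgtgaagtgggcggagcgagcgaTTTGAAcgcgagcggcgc

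MKI67 (ENSG00000148773, chromosome 10, 129894923 to 129924649) was at 9.45 and 10.03 CPM in XRCC4 KO and 68.3 and 109 in WT, with 98.7 and 91.8 in cGAS KO and 109.8 and 73.4 in STING KO. XRCC4 KO lay below these 6 irradiated libraries, and below both untreated libraries (23.6 and 69.9). Its log2 fold change was -3.18 ± 0.62 (adjusted p = 0.00676) against WT and -3.26 ± 0.58 (adjusted p = 0.0214) against the other knockout lines, where the call was lost without any cGAS KO or XRCC4 KO library (0.0597 to 0.216). CDC25C (ENSG00000158402, chromosome 5, 137620954 to 137685418), the phosphatase that releases CDK1 for entry into mitosis, was at 0.260 and 0.0964 CPM against 2.27 and 2.73 (log2 fold change -3.71 ± 0.64, adjusted p = 0.00311). TOP2A (ENSG00000131747, chromosome 17, 38544768 to 38574202), the topoisomerase that untangles sister chromatids, was at 8.93 and 10.3 against 65.4 and 93.97 (log2 fold change -3.05 ± 0.67, adjusted p = 0.0119). Kinases and cyclins of mitosis were lower, with log2 fold changes of AURKB (-2.99), BUB1 (-2.71), PLK1 (-2.45), CDK1 (-2.56), CCNB2 (-2.40) and CCNA2 (-2.31), as were the transcription factors of the programme, FOXM1 (-2.59) and MYBL2 (-3.04). CCNB1, cyclin B1, was at 16.5 and 13.5 CPM against 33.7 and 45.6 and was not called (log2 fold change -1.40 ± 0.52, adjusted p = 0.082), although the groups did not overlap. LMNB1 (ENSG00000113368, chromosome 5, 126112315 to 126172712), the lamin that is lost in senescent cells, was at 1.56 and 2.03 against 11.8 and 16.7 (log2 fold change -2.99 ± 0.66, adjusted p = 0.0114). In the list of lamin and chromatin genes it belongs to, 6 of 19 tested members were lower and 0 higher, among them HMGB2, a chromatin protein, with a log2 fold change of -1.95 ± 0.54 (adjusted p = 0.0287), and CBX5, a heterochromatin protein, with -0.94 ± 0.28 (adjusted p = 0.0368). Without each library in turn 2, 0, 1 and 0 of these were called. The call of CDC25C held with any 1 of the 4 libraries left out. MKI67 (0.0567 to 0.0604) did not pass without either XRCC4 KO library. TOP2A (0.0616 to 0.0875) and LMNB1 (0.0575 to 0.0871) missed the threshold without WT replicate 2 or either XRCC4 KO library. HMGB2 (0.0637 to 0.145) and CBX5 (0.0854 to 0.183) lost the call with any 1 of the 4 libraries left out.

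Genes of DNA replication moved less. In the G1-S list 12 of 52 members were lower and 1 higher, with a median of -0.80. RRM2, the regulated subunit of ribonucleotide reductase, was at 10.5 and 7.91 CPM in XRCC4 KO and 39.3 and 60.8 in WT (log2 fold change -2.44 ± 0.73, adjusted p = 0.04), and TK1, thymidine kinase, at 1.73 and 1.74 against 10.6 and 14.7 (log2 fold change -2.86 ± 0.86, adjusted p = 0.0397). ORC1, a subunit of the origin recognition complex, had a log2 fold change of -2.61 ± 0.66 (adjusted p = 0.0194). The exception was CCNE1, cyclin E1, which drives entry into S phase, at 17.5 and 18.04 against 7.63 and 9.49 (log2 fold change 1.05 ± 0.29, adjusted p = 0.0269). The replication helicase genes were lower in part, with log2 fold changes of MCM2 (-1.57) and MCM6 (-1.22). RRM2 (0.0755 to 0.195), TK1 (0.0832 to 0.177) and CCNE1 (0.0693 to 0.137) did not pass with any 1 of the 4 libraries left out. ORC1 (0.0903 to 0.122) missed the threshold without WT replicate 2 or either XRCC4 KO library. Without each library 4, 2, 1 and 0 members were called lower and 0 higher.

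Genes induced by p53 showed no common direction between XRCC4 KO and WT. Of 40, all tested, 5 were higher (12.5%, beside 11.9% of all genes) and 4 lower (10%, beside 12.1%), with a median of 0.18. Against untreated WT, in contrast, 32 of the 40 were higher in XRCC4 KO and 0 lower, beside 22.8% and 23.5% of all genes, with a median of 1.05. CDKN1A (ENSG00000124762, chromosome 6, 36644237 to 36655116), the inhibitor of cyclin-dependent kinases, was at 1891 and 1999 CPM in XRCC4 KO, 1243 and 970.4 in WT and 162 and 115 in untreated WT. XRCC4 KO was highest of the 5 groups, and its log2 fold change against WT was 0.81 ± 0.19 (adjusted p = 0.0136). POLH (ENSG00000170734, chromosome 6, 43543887 to 43596899), the translesion polymerase eta, was at 97.3 and 95.3 against 56.3 and 57.5 (log2 fold change 0.76 ± 0.12, adjusted p = 0.00196), and it was also higher than in the other knockout lines (log2 fold change 0.66 ± 0.10, adjusted p = 0.00978), a call lost without either XRCC4 KO library (0.11 to 0.129). TP53INP1, a stress-induced nuclear protein, was at 157 and 153 against 100.2 and 90.1 (log2 fold change 0.70 ± 0.13, adjusted p = 0.00374), and TNFRSF10A, a death receptor, at 128 and 126 against 81.7 and 79.1 (log2 fold change 0.66 ± 0.16, adjusted p = 0.0128). MDM2, the ubiquitin ligase of p53, was not called (log2 fold change -0.27 ± 0.15, adjusted p = 0.223). Lower in XRCC4 KO were GDF15, a secreted stress factor, at 42.3 and 44.9 against 157 and 86.5 (log2 fold change -1.48 ± 0.44, adjusted p = 0.0367), and BBC3 (PUMA), which promotes cell death, at 13.01 and 11.3 against 24.5 and 15.4 (log2 fold change -0.71 ± 0.22, adjusted p = 0.0405). TNFRSF10C, a decoy receptor, was at 0.173 and 0.675 against 2.27 and 2.85 (log2 fold change -2.60 ± 0.50, adjusted p = 0.00526). With log2(FPKM + 0.1), 0 members were called higher and the median was -0.08, on a scale that shifts all genes down. Relative to the median of all genes the list stood at 0.19 there and at 0.21 with TMM factors. Left out in turn, the libraries gave 3, 2, 2 and 2 members higher and 2, 4, 1 and 2 lower. The calls of POLH and TP53INP1 held with any 1 of the 4 libraries left out. CDKN1A (0.0564 to 0.11) did not pass without WT replicate 2 or either XRCC4 KO library. TNFRSF10A (0.0544 to 0.0744) missed the threshold with any 1 of the 4 libraries left out. GDF15 (0.152 to 0.206) and BBC3 (0.116 to 0.324) lost the call without WT replicate 1 or either XRCC4 KO library. The same held for TNFRSF10C (0.0509) without XRCC4 KO replicate 1.

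End-joining genes showed no common direction: of 18 tested members of 19, 2 were higher and 2 lower, with a median of -0.02. That is 11.1% each way, near the 11.9% and 12.1% of all genes. LIG4 (ENSG00000174405, chromosome 13, 108859787 to 108870716), the ligase that XRCC4 stabilises, was at 59.5 and 56.04 CPM in XRCC4 KO and 30.99 and 27.6 in WT (log2 fold change 0.98 ± 0.14, adjusted p = 0.00141). NHEJ1 (ENSG00000187736, chromosome 2, 219940039 to 220035549), which encodes XLF, the partner that forms filaments with XRCC4, was at 12.6 and 16.01 against 9.21 and 8.24 (log2 fold change 0.71 ± 0.19, adjusted p = 0.0208). Lower were RIF1, which protects broken ends from resection, at 77.5 and 65.97 against 103 and 96.6 (log2 fold change -0.48 ± 0.12, adjusted p = 0.0207), and MAD2L2, a shieldin subunit with the same role, at 7.81 and 6.94 against 11.5 and 14.6 (log2 fold change -0.82 ± 0.19, adjusted p = 0.0124). The end-binding proteins were not called: XRCC5 and XRCC6 (Ku80 and Ku70) had log2 fold changes of -0.01 ± 0.09 and -0.03 ± 0.09, and PRKDC, the DNA-dependent kinase, of 0.33 ± 0.13 (adjusted p = 0.0906). With the libraries left out in turn 1, 1, 2 and 1 members were higher and 1, 0, 1 and 0 lower. DNTT, the polymerase of lymphocyte end joining, did not pass the filter and had no count in the 4 libraries. LIG4 was higher in XRCC4 KO than in untreated WT too (log2 fold change 1.22 ± 0.15, adjusted p = 0.000141), and in the other knockout lines it was at 43.3 and 44.6 and 45.7 and 45.6 CPM. Among 37 genes of the other break repair routes 11 were lower (29.7%, beside 12.1% of all genes) and 3 higher (8.11%, beside 11.9%), with a median of -1.12. Among those called lower were the helicase BRIP1 (-3.26), the recombination motor RAD54L (-2.70), the nuclease EXO1 (-2.45), the Fanconi gene FANCI (-1.40) and POLQ (-1.93), the polymerase of theta-mediated end joining, with log2 fold changes in parentheses. The sensor complex genes RAD50 and NBN were higher, at 275 and 263 against 179 and 156 (log2 fold change 0.68 ± 0.19, adjusted p = 0.0269) and 106 and 93.8 against 72.7 and 65.3 (log2 fold change 0.53 ± 0.12, adjusted p = 0.00909). The third member called higher was FANCF, of the Fanconi core complex, at 25.8 and 23.9 against 17.8 and 18.1 (log2 fold change 0.47 ± 0.14, adjusted p = 0.0374). Without each library 7, 2, 2 and 2 of the repair list were called lower and 1, 0, 0 and 1 higher. Of 22 checkpoint genes 2 were higher (9.09%, beside 11.9% of all genes) and 4 lower (18.2%, beside 12.1%). Those higher were ATM, the kinase that signals breaks (log2 fold change 0.44 ± 0.14), and SFN, a 14-3-3 protein (0.65 ± 0.20). Fewer checkpoint genes were called in either direction with any 1 of the 4 libraries left out. The call of LIG4 held with any 1 of the 4 libraries left out. NHEJ1 (0.0611 to 0.163) and RIF1 (0.0593 to 0.175) did not pass without either WT library or XRCC4 KO replicate 2. MAD2L2 (0.0595 to 0.102) missed the threshold without WT replicate 2 or either XRCC4 KO library. RAD50 (0.0612 to 0.152), FANCF (0.106 to 0.171), ATM (0.0686 to 0.19) and SFN (0.0896 to 0.192) lost the call with any 1 of the 4 libraries left out. The same held for NBN (0.0744 to 0.0745) without WT replicate 2 or XRCC4 KO replicate 1.

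Histone transcripts with poly-A tails changed in both directions. Over the list 3 of 20 tested members were higher and 4 lower against WT, or 15% and 20%, beside 11.9% and 12.1% of all genes. Most histone mRNA lacks a poly-A tail and is made in S phase, while cells that leave the cycle make more of the polyadenylated forms. The linker histone HIST1H1C (ENSG00000187837, chromosome 6, 26056015 to 26056656) was at 63.1 and 57.3 CPM in XRCC4 KO, 31.7 and 18.4 in WT, 12.6 and 12.4 in cGAS KO, 11.8 and 14.2 in STING KO and 4.03 and 7.79 in untreated WT. XRCC4 KO was the highest of these groups, with log2 fold changes of 1.27 ± 0.30 (adjusted p = 0.0131) against WT and 2.24 ± 0.25 (adjusted p = 0.00297) against the other knockout lines. HIST1H3E was at 17.1 and 15.1 against 8.45 and 5.81 (log2 fold change 1.18 ± 0.26, adjusted p = 0.0103), and HIST1H2AC at 132 and 125 against 83.3 and 48.6 (log2 fold change 0.96 ± 0.29, adjusted p = 0.0375). The replication-independent H2AFZ was lower, at 55.6 and 47.4 against 97.7 and 122 (log2 fold change -1.09 ± 0.27, adjusted p = 0.0171), as were HIST3H2A, at 12.1 and 8.01 against 18.9 and 15.8 (log2 fold change -0.78 ± 0.23, adjusted p = 0.0347), and the linker histones H1F0 (log2 fold change -1.54 ± 0.34, adjusted p = 0.0106) and H1FX (log2 fold change -1.30 ± 0.19, adjusted p = 0.00129). Linker histones thus stood on both sides. Against untreated WT 12 of the 20 were higher and 5 lower, beside 22.8% and 23.5% of all genes. Against the other knockout lines 6 were higher and 1 lower, beside 2.4% and 1.81% of all genes. Left out in turn, the libraries gave 4, 0, 0 and 1 higher and 2, 3, 2 and 1 lower against WT. Histone genes of one cluster are similar in sequence, so counts can be split between them. The call of H1FX held with any 1 of the 4 libraries left out. HIST1H1C (0.0528 to 0.0916), HIST1H2AC (0.117 to 0.208) and H2AFZ (0.0688 to 0.119) did not pass without WT replicate 2 or either XRCC4 KO library. HIST1H3E (0.0664 to 0.088) missed the threshold without WT replicate 2 or XRCC4 KO replicate 1. H1F0 (0.0602 to 0.0914) lost the call without WT replicate 1 or either XRCC4 KO library, and HIST3H2A (0.0661 to 0.245) without either WT library or XRCC4 KO replicate 2.

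Basal keratins were higher and simple-epithelial keratins lower in XRCC4 KO. KRT5 (ENSG00000186081, chromosome 12, 52908359 to 52914471), a keratin of basal cells, was at 8979.7 and 8526 CPM against 4606 and 3849 in WT (log2 fold change 1.05 ± 0.14, adjusted p = 0.0011), and its partner KRT14 at 2504 and 2399.9 against 977 and 1004 (log2 fold change 1.31 ± 0.34, adjusted p = 0.0215). COL17A1, a hemidesmosome collagen, was at 3769 and 3937 against 2590.4 and 2203 (log2 fold change 0.69 ± 0.17, adjusted p = 0.0153), and TRIM29, a regulator found in basal cells, had a log2 fold change of 1.08 ± 0.32 (adjusted p = 0.0363). These are the 4 called among 15 basal markers, whose median was 0.08 (-0.08 with library totals and -0.23 with log2(FPKM + 0.1), scales that shift all genes down). Relative to the median of all genes it was 0.11, 0.11 and 0.04 on the 3 scales. With the libraries left out in turn 2, 1, 1 and 1 were called. KRT8 (ENSG00000170421, chromosome 12, 53290971 to 53346686) was at 54.9 and 46.97 against 316 and 239 (log2 fold change -2.45 ± 0.34, adjusted p = 0.00138), its partner KRT18 at 179 and 178 against 327 and 293 (log2 fold change -0.80 ± 0.13, adjusted p = 0.00277), and the luminal transcription factor FOXA1 at 7.11 and 6.66 against 16.4 and 13.04 (log2 fold change -1.09 ± 0.26, adjusted p = 0.0125). They are the 3 called of 13 tested luminal markers, and 2, 3, 2 and 2 were called with the libraries left out in turn. KRT5 was at 9152 and 8659 CPM in cGAS KO, 9174 and 10609.8 in STING KO and 2318 and 2284 in untreated WT, so both WT groups lay below the 3 knockout lines. Among 43 tested epidermal differentiation genes 3 were higher (6.98%, beside 11.9% of all genes) and 1 lower (2.33%, beside 12.1%). Those higher were KRT6C (log2 fold change 3.35 ± 0.98, adjusted p = 0.037), which has near-identical relatives, the corneodesmosome gene CDSN (log2 fold change 3.12 ± 0.85, adjusted p = 0.0261) and the cornified envelope gene CNFN (log2 fold change 1.80 ± 0.31, adjusted p = 0.00321). The gene called lower was S100A7 (psoriasin), with a log2 fold change of -2.55 ± 0.74 (adjusted p = 0.0349). In the left-out fits 2, 1, 1 and 1 of these genes were higher and 0 lower. Of 36 tested mesenchymal and matrix genes 9 were lower and 0 higher, with a median of -1.25. In those fits 7, 4, 2 and 3 were lower, and without WT replicate 2 the median was -0.40. LOX, the enzyme that cross-links collagen, was at 3.04 and 3.28 against 27.97 and 57.5 (log2 fold change -3.76 ± 0.61, adjusted p = 0.00324), and SNAI1, a repressor of epithelial genes, had 1 and 0 counts against 13 and 39. In 32 of the 36 the level in WT replicate 2 was above that in WT replicate 1, beside 48.3% of all genes. VIM stood at 269 and 475 CPM in WT and was not called (adjusted p = 0.103). The calls of KRT5, KRT8, KRT18, CNFN and LOX held with any 1 of the 4 libraries left out. KRT14 (0.08 to 0.102), TRIM29 (0.066 to 0.201), KRT6C (0.0976 to 0.169) and S100A7 (0.0847 to 0.189) did not pass with any 1 of the 4 libraries left out. COL17A1 (0.0618 to 0.117) and CDSN (0.0804 to 0.134) missed the threshold without WT replicate 2 or either XRCC4 KO library. FOXA1 (0.0746 to 0.0946) lost the call without WT replicate 1 or either XRCC4 KO library.

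Metabolic genes moved in both directions. Of 24 tested genes of cholesterol biosynthesis 9 were higher and 0 lower, with a median of 0.72. FDFT1, squalene synthase, was at 570.4 and 581 CPM against 294 and 275 (log2 fold change 1.02 ± 0.22, adjusted p = 0.00936), DHCR7, the last enzyme of the pathway, at 267 and 287 against 144 and 139.6 (log2 fold change 0.97 ± 0.28, adjusted p = 0.0313), and FDPS, which makes farnesyl diphosphate, at 886 and 879.7 against 406 and 337 (log2 fold change 1.25 ± 0.39, adjusted p = 0.0445). Without each library 5, 1, 4 and 2 members were called higher, and with log2(FPKM + 0.1) 1 was. Against untreated WT 22 of 24 were higher, beside 22.8% of all genes. Against the other knockout lines edgeR and DESeq2 called 0 in either direction, with 1 higher at an unadjusted p below 0.05 (edgeR). Of 26 hypoxia and glycolysis genes 10 were lower and 0 higher, with a median of -0.92. CA9, a carbonic anhydrase induced by hypoxia, was at 1.13 and 0.289 against 32.6 and 43.5 (log2 fold change -5.70 ± 1.21, adjusted p = 0.0101), and EGLN3, a prolyl hydroxylase of the same response, at 5.03 and 2.80 against 30.4 and 20.5 (log2 fold change -2.69 ± 0.66, adjusted p = 0.0177). Without each library 7, 6, 2 and 3 of these were called lower. Among 26 NRF2 antioxidant genes 7 were higher and 4 lower, and 3, 2, 3 and 2 higher and 2, 2, 1 and 1 lower with the libraries left out in turn. TALDO1, of the pentose phosphate pathway, was at 207 and 234 against 123 and 126 (log2 fold change 0.83 ± 0.12, adjusted p = 0.00138), and the transporter ABCC3 at 38.5 and 37.6 against 141 and 183 (log2 fold change -2.09 ± 0.21, adjusted p = 0.000327). The calls of TALDO1 and ABCC3 held with any 1 of the 4 libraries left out. FDFT1 (0.0521 to 0.0641) did not pass without WT replicate 2 or XRCC4 KO replicate 2. DHCR7 (0.0908 to 0.137) and FDPS (0.118 to 0.207) missed the threshold with any 1 of the 4 libraries left out. CA9 (0.0611 to 0.0891) lost the call without either XRCC4 KO library. The same held for EGLN3 (0.069 to 0.131) without WT replicate 1 or either XRCC4 KO library.

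Growth factor and stress signalling changed in a few genes. EPGN, a ligand of the EGF receptor, was at 344 and 394 CPM in XRCC4 KO against 127 and 59.6 in WT (log2 fold change 1.98 ± 0.39, adjusted p = 0.00703), and NRG1, a ligand of ERBB receptors, at 21.2 and 18.6 against 7.28 and 10.2 (log2 fold change 1.18 ± 0.31, adjusted p = 0.0205). Feedback genes of TGF-beta and BMP signalling were lower, SKIL at 16.05 and 12.8 against 27.3 and 33.97 (log2 fold change -1.08 ± 0.19, adjusted p = 0.00368) and SMAD7 at 5.72 and 4.05 against 9.21 and 10.6 (log2 fold change -1.02 ± 0.25, adjusted p = 0.0163). Together 2 of 27 members of this list were higher (7.41%, beside 11.9% of all genes) and 6 lower (22.2%, beside 12.1%). Left-out fits gave 1, 2, 1 and 1 higher and 4, 2, 3 and 2 lower. Immediate early genes gave 1 higher (4.17%) and 6 lower (25%) of 24 tested, beside the same shares of all genes. EGR1 was at 243 and 145 in untreated WT and at 18.8 and 18.1 in XRCC4 KO against 38.8 and 47.4 in irradiated WT (log2 fold change -1.22 ± 0.25, adjusted p = 0.00763), and DUSP6, a phosphatase that limits ERK, at 98.8 and 97.4 against 169.9 and 197 (log2 fold change -0.90 ± 0.13, adjusted p = 0.00113). With the libraries left out in turn 1, 0, 0 and 0 immediate early genes were higher and 3, 2, 2 and 2 lower. Of 28 genes of the integrated stress and unfolded protein responses 5 were lower (17.9%, beside 12.1% of all genes) and 1 higher (3.57%, beside 11.9%). Fewer of them were called lower with any 1 of the 4 libraries left out. PHGDH, the first enzyme of serine synthesis, was at 206 and 125 in untreated WT and at 0.173 and 0.289 in XRCC4 KO against 14.6 and 16.7 in irradiated WT (log2 fold change -6.04 ± 1.88, adjusted p = 0.0448), while the transcription factor ATF5 was at 98.6 and 85.9 against 60.7 and 57.9 (log2 fold change 0.64 ± 0.14, adjusted p = 0.0106). The calls of EPGN, SKIL and DUSP6 held with any 1 of the 4 libraries left out. NRG1 (0.0685 to 0.121) did not pass without WT replicate 1 or either XRCC4 KO library. SMAD7 (0.0917 to 0.138) missed the threshold without WT replicate 2 or XRCC4 KO replicate 2. EGR1 (0.0526 to 0.0679) lost the call without WT replicate 2 or either XRCC4 KO library. The same held for PHGDH (0.102 to 0.199) with any 1 of the 4 libraries left out. ATF5 (0.0672 to 0.076) missed the threshold without WT replicate 2 or XRCC4 KO replicate 1.

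Some of the largest differences were close to on or off. TMPRSS15 (ENSG00000154646, chromosome 21, 19641433 to 19858917), enteropeptidase, a gut protease, was at 218 and 229 CPM in XRCC4 KO, 4.81 and 2.43 in WT, 5.34 and 3.24 in untreated WT, 0.0618 and 0 in cGAS KO and 0 and 0 in STING KO. XRCC4 KO lay far above the libraries of these 4 other groups, with a log2 fold change of 5.96 ± 0.48 (adjusted p = 0.000327) against WT. CALB1 (calbindin), a calcium-binding protein, was at 1778 and 1769 against 145 and 103 (log2 fold change 3.84 ± 0.55, adjusted p = 0.00169), and it was also high in cGAS KO (1043 and 1122) and STING KO (776 and 1349.5). CXCR1, a receptor for CXCL8, was at 18.6 and 18.5 against 1.86 and 1.30 (log2 fold change 3.55 ± 0.44, adjusted p = 0.000685), and GDA, guanine deaminase, at 28.2 and 27.5 against 1.86 and 1.36 (log2 fold change 4.11 ± 0.51, adjusted p = 0.000788). In the other direction, 110 genes had at most 3 counts over both XRCC4 KO libraries and at least 1 CPM in both WT libraries at 5 days, while 2 genes showed the reverse. PYCARD, the adaptor of inflammasomes, had 0 counts in XRCC4 KO and 92 and 101 in WT, at least 44.8-fold lower. NLGN4X, a synaptic adhesion protein, had 0 against 99 and 112, at least 49.0-fold lower, SLC1A1, a glutamate transporter, 0 against 109 and 80, at least 43.9-fold, and ZNF32, a zinc finger gene, 0 against 94 and 94, at least 43.7-fold. Untreated WT cells held PYCARD at 3.73 and 3.24 CPM and NLGN4X at 8.49 and 13.1. Of the 110 genes, 69 had at least 1 CPM in both untreated WT libraries, so they were expressed in the line without irradiation. By the same count limit 39 were also silent in cGAS KO, 35 in STING KO and 29 in both, and 65 were silent in XRCC4 KO alone among the 3 lines. Symbols of zinc finger genes made up 10 of the 110, and 2 were on the interferon-stimulated list. The share of zinc finger symbols among all tested genes was not counted, so the 10 cannot be read as an excess. The calls of TMPRSS15, CALB1, CXCR1, GDA, PYCARD, NLGN4X, SLC1A1 and ZNF32 held with any 1 of the 4 libraries left out.

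The same genotypes at 3 days came from 4 other libraries, so the 2 comparisons share no sample. Between them time, experiment and the vehicle label differ together. At 3 days 9397 of 16632 genes were called (56.5%, with 28.6% higher and 27.9% lower), in a fit whose biological coefficient of variation was 0.0361 against 0.187 at 5 days, so the counts of calls are not on 1 footing. Of 14969 genes tested in both, 1546 were higher in both, which is 86.0% of those higher at 5 days and 33.1% of those higher at 3 days. Lower in both were 1468, or 80.4% and 34.0%, and 34 and 46 genes moved in opposite directions. The difference between the 2 effects was tested directly and passed for 689 genes (4.07%), 329 with a higher value at 5 days (1.95%) and 360 with a lower one (2.13%).

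Interferon-stimulated genes were lower in XRCC4 KO at 3 days as well, with a median of -1.13. Of 62 members 54 were called lower and 3 higher, beside 27.9% and 28.6% of all genes. The fall was larger at 5 days for 59 of 61 members, and for 14 the difference was called, all towards a lower value at 5 days. IFIT1 was at 2.17 and 3.09 against 12.8 and 19.5 at 3 days, far below its WT level at 5 days, and the difference of its log2 fold changes, -1.48 ± 1.21 (adjusted p = 0.565), was not called. G2-M genes were called lower in 39 and higher in 3 of 52 members at 3 days, beside the same shares of all genes. They fell by little, with a median of -0.46. MKI67 was at 56.7 and 55.9 against 88.9 and 91.9 (log2 fold change -0.68 ± 0.05, adjusted p = 1.24e-12), and the difference from 5 days was -2.47 ± 0.65 (adjusted p = 0.0485). CDC25C was at 3.61 and 3.72 against 3.67 and 3.28 at 3 days, not called (log2 fold change 0.08 ± 0.18, adjusted p = 0.736), and its effects differed by -3.77 ± 0.69 (adjusted p = 0.00473). Among the 52, the difference passed for these 2 and HMMR, and its median was -1.77. Of the NF-kB list, IL1B was at 134 and 135 against 1052 and 1043 at 3 days (log2 fold change -2.96 ± 0.05, adjusted p = 8.78e-32) with no call at 5 days, a difference of 2.39 ± 0.54 (adjusted p = 0.0241). ICAM1 fell at both times, with a log2 fold change of -3.88 ± 0.08 (adjusted p = 7.83e-29) at 3 days, and the difference was -0.39 ± 0.35 (adjusted p = 0.597). KRT14 was at 5003 and 4951 against 43.5 and 44.8 at 3 days, where the WT libraries of that experiment were low (log2 fold change 6.81 ± 0.05, adjusted p = 1.44e-40), so its effects differed by -5.48 ± 0.40 (adjusted p = 2.64e-06). In the experiment of the 5-day comparison no library held KRT14 below 470.7 CPM, WT cells 3 days after irradiation included. What set the low WT level was not tested. TMPRSS15 was at 305 and 294 CPM in XRCC4 KO at 3 days and at 0 and 0.293 in WT, and PYCARD at 0 and 0 against 12.7 and 12.5. Each of the 8 libraries was also left out of the test of the difference: the call of KRT14 held in 8 of 8 fits, that of CDC25C in 7 (0.0511 without XRCC4 KO replicate 2 of 5 days), that of IL1B in 1 (0.0538 to 0.0929 in the others) and those of MKI67 (0.0555 to 0.159) and HMMR (0.0717 to 0.145) in 0. Of the 110 genes silent in XRCC4 KO at 5 days, 55 were within the same count limit in XRCC4 KO at 3 days. Of the same 110, 75 had at least 1 CPM in both WT libraries at 3 days.

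**Figure D4:**
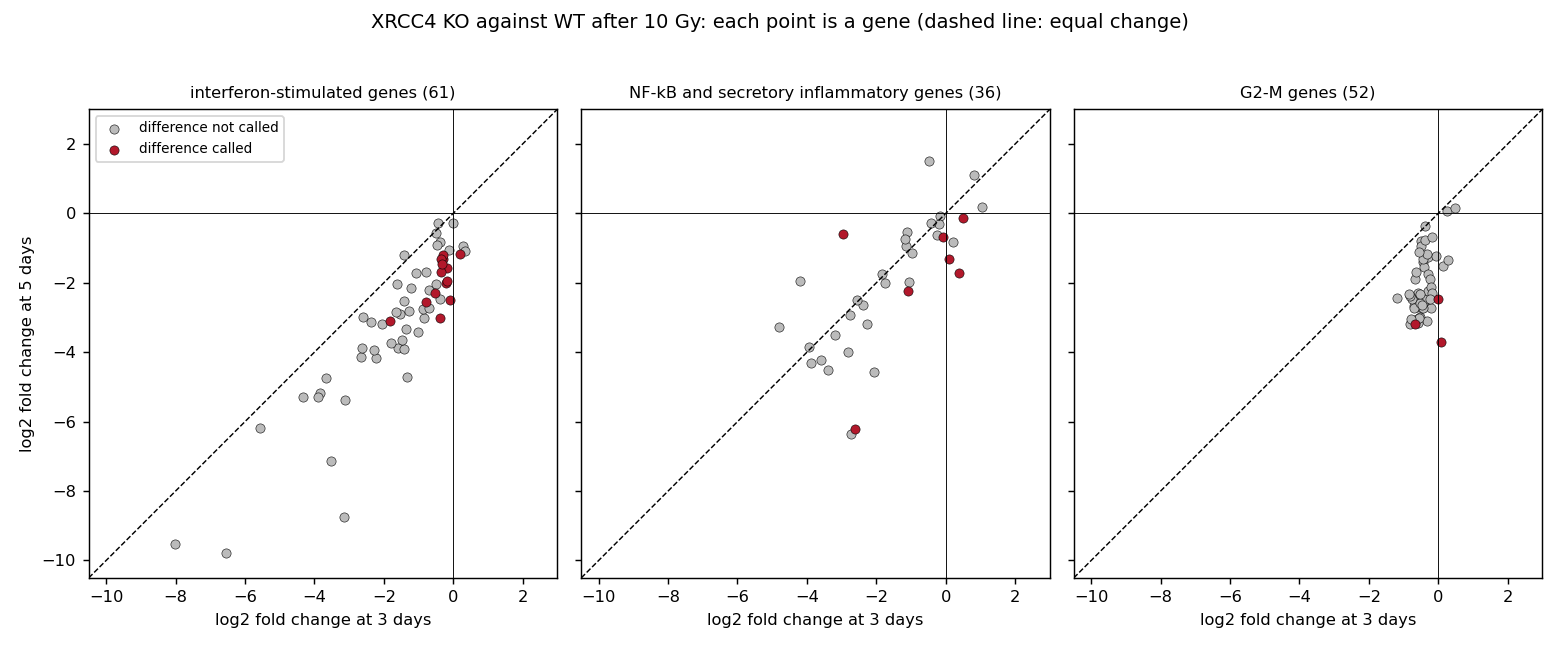
Log2 fold change of XRCC4 KO against WT 3 days (x axis) and 5 days (y axis) after 10 Gy for members of 3 lists tested at both times, 1 point a gene, with the dashed line at equal change and red points where the difference was called. Of the interferon-stimulated genes 59 of 61 lie below the line, and the G2-M genes, with a median of -0.46 at 3 days and -2.35 at 5 days, form a steep column near the y axis.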

How the data were processed

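Poly-A RNA was sequenced from 32 libraries. The deposited table of estimated counts gives values per gene and library that were rounded here. Over all genes of the table, zeros included, 96.0% to 97.3% of the values of a library were whole. The second deposited table holds FPKM values made by the authors. STAR, Cuffnorm, DESeq2, FastQC, bcl2fastq and hg19 stand in the submitters' processing notes; versions, settings and the annotation are not given in the sources used here. Deposited intervals count their start from 0, judged by gene lengths, so 1 was added. They can span several genes, as around IFIT1.

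Of 60332 genes, 15190 passed edgeR's filterByExpr over the 14 libraries of the first experiment (7 groups), which were fitted together with TMM factors and tested with the robust quasi-likelihood F test (edgeR 4.0.16, R 4.3.3), with Benjamini-Hochberg adjustment over all tested genes and a threshold of 0.05. The 3-day comparison used the 12 libraries of the second experiment, and the difference between times a joint fit of 26. CPM are counts over the total of tested genes times the TMM factor, and log2 CPM add a prior count of 2. Alternatives were DESeq2 1.42.0, RLE factors, library totals, no filter, at least 10 counts in each library of a group, the compared libraries alone, a replicate block, limma 3.58.1 on log2 FPKM plus 0.1 or 1, and each library left out. Where a group had 0 counts, a fold is a lower bound against 3 counts over the group, and with 1 to 3 counts it is a ratio with an exact 95% interval. The scripts were tested on simulated data.

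Named genes are the end-joining genes, a fixed set of anchor genes, for each list the called members with the largest fold changes, at most 4 higher and 4 lower, and the called genes with a mean of at least 1 CPM that changed most, 10 each way; further list members serve as examples. Some genes of the lists are not reported here. The members and lists were chosen with earlier results of these data known. The comparison with cGAS KO and STING KO, the fit of the irradiated 5-day groups, the ribosomal protein list and the second promoter motif were added after seeing the data. Promoter sequences are RefSeq's (GRCh38.p14).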

Additional observations from a re-analysis of the deposited data

Results flagged for a closer look

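The effect of XRCC4 loss was not the same at 5 and at 3 days for 689 genes, by a test of the difference between the log2 fold changes (edgeR quasi-likelihood F test, adjusted p below 0.05), and the following genes named by rule were among them. Time, experiment and the vehicle label of the WT cells differ together between the 2 comparisons and cannot be told apart. Values in parentheses are the log2 fold change at 5 days minus that at 3 days. Lower at 5 days were interferon-linked genes, SAMHD1 (-2.07), TREX1 (-1.97) and IFI16 (-0.71), the cytokine gene CSF3 (-3.58), the surface and lysosomal proteins CD14 (-2.15) and CD68 (-1.33), the death gene BBC3 (-1.06), and genes of division and repair, MKI67 (-2.47), CDC25C (-3.77) and BRIP1 (-2.80). The keratin genes KRT5 (-0.56) and KRT14 (-5.48) also had the smaller rise at 5 days. For KRT14 the WT libraries of the 3-day experiment were low. The matrix gene LOX (-2.79), the hypoxia gene EGLN3 (-2.51), the stress gene DDIT4 (-0.90), the immediate early gene EGR1 (-1.93) and the transporter ABCC3 (-1.13) had the lower value. The same holds for TMPRSS15 (-4.81), CALB1 (-5.70), PDE3B (-6.69) and NLGN4X (-6.74). NLGN4X had 0 counts in both XRCC4 KO libraries at 5 days, and TMPRSS15 was near 0 in WT at 3 days. The sizes of their differences therefore rest on groups with almost no counts and are uncertain. Higher at 5 days than at 3 days were the end-joining polymerase POLM (1.16), the cytokine IL1B (2.39), the histone HIST1H1C (1.70), the epidermal gene S100A7 (3.06) and the receptor CXCR1 (1.996). With each of the 8 libraries left out in turn, the calls of POLM, KRT14, CD68, EGR1, ABCC3, CALB1 and PDE3B held in 8 of 8 fits, and those of CDC25C, HIST1H1C, DDIT4 and TMPRSS15 in 7. CSF3 held in 4, MKI67, S100A7 and EGLN3 in 0, and the others in 1.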

How the results depend on the processing

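Counts of genes called higher or lower moved with the processing in several comparisons, and the cause was not tested. For XRCC4 KO against WT at 5 days (1808 higher, 1844 lower), library totals gave 1024 and 2787, limma on log2(FPKM + 0.1) gave 426 higher and on log2(FPKM + 1) 452, and leaving out 1 library gave 750 to 968 higher and 570 to 1090 lower. Against untreated WT (3460 and 3575) the FPKM scales gave 1574 and 1505 higher, and leaving out 1 library gave 2117 to 3041 lower. Against cGAS KO and STING KO (364 and 275) DESeq2 gave 603 and 537, library totals 188 and 416, no filter 733 and 1057, the compared libraries alone 1300 and 1229, log2(FPKM + 0.1) 70 higher, and log2(FPKM + 1) 64 and 155. Leaving out 1 library there gave 12 to 228 higher and 3 to 141 lower. At 3 days (4759 and 4638) library totals gave 3043 higher and the FPKM scales 2036 and 1998. For the difference between 5 and 3 days (329 and 360) DESeq2 gave 597 lower, no filter 524 and 959, the compared libraries alone 982 and 1048, log2(FPKM + 0.1) 62 and 136, log2(FPKM + 1) 105 and 142, and leaving out 1 library 110 to 255 higher and 119 to 341 lower. Of 165 named genes tested at 5 days, 48 kept their direction and their side of the threshold under every alternative. Of the called ones 0 turned direction, while 6 that were not called did: XRCC5 (0.0022 with at least 10 counts, 0.000324 with the compared libraries alone, -0.038 to 0.040 with 1 library left out), XRCC6 (-0.068 to 0.017 with 1 left out), PAXX (-0.14 with library totals, -0.000413 with no filter, -0.22 and -0.21 on the FPKM scales, -0.072 to 0.12 with 1 left out), APLF (-0.073 and -0.044 on the FPKM scales), APTX (-0.084 and -0.082 there) and TMEM173 (-0.36 to 0.29 with 1 left out). The uncalled effect on CDC25C at 3 days turned to -0.10 with library totals, -0.20 and -0.14 on the FPKM scales and -0.000556 to 0.17 with 1 left out, and the difference between times of ICAM1 to 0.50 with log2(FPKM + 1). At 5 days calls were lost for 13 of the 165 with library totals (NHEJ1, IGFBP7, CCNE1, RAD50, SFN, ATM, HIST1H2AC, TRIM29, FANCF, FDPS and DHCR7 among those described), for 14 with the compared libraries alone (GDF15, IFIT1, ISG15, DDX58, IFIH1, CXCL10, LAMP3, CMPK2, IFNL1, TLR3, BBC3, HIST1H2AC, EPGN and GBP4), for 2 with DESeq2 (MB21D1 and S100A7), for 2 with no filter (MB21D1 and FANCF), and for 38 and 45 on the FPKM scales, CDKN1A, MB21D1, NHEJ1, POLH, COL17A1 and TRIM29 on both. Groups share replicate numbers in the labels, but with 2 pairs the numbers cannot be shown to pair the libraries: deviations across genes of XRCC4 KO and WT at 5 days had r = 0.01, while those of the 4 WT groups of the experiment had r = 0.25 to 0.44 with each other. With the replicate number as a block the counts were 1851 and 1988 at 5 days, 3477 and 3578 against untreated WT, 404 and 374 against the other knockout lines, 4773 and 4633 at 3 days, and 328 and 385 for the difference, and at 5 days KRT6C (adjusted p = 0.0537), FDPS (0.052) and PHGDH (0.0688) were no longer called. Groups of 2 libraries limit every comparison, and genes near the filter on low counts rest on few reads.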

Other observations

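Cytosolic ribosomal proteins, the protein part of the ribosome, were encoded by a set of transcripts that rose together in XRCC4 KO. This list was chosen after the values had been seen. Of 83 genes 81 passed the filter on low counts, and 74 were called higher and 0 lower at 5 days, beside 11.9% of all genes called higher, with a median log2 fold change of 0.76. The mean log2 CPM of the list was 9.78 and 9.73 in XRCC4 KO and 8.93 and 8.997 in WT, and the groups did not overlap. RPLP0, of the ribosomal stalk, was at 2945 and 3108 CPM in XRCC4 KO against 1231 and 1441 in WT, a log2 fold change of 1.18 ± 0.16 (adjusted p = 0.00103). RPS3, a protein of the small subunit, was at 3351 and 3176 CPM in XRCC4 KO against 1303 and 1421 in WT, a log2 fold change of 1.26 ± 0.16 (adjusted p = 0.000685). Both genes had WT libraries that lay close together. RPL11, a large-subunit protein that can also bind MDM2, was at 1656 and 1435 CPM in XRCC4 KO against 928 and 989.8 in WT, a log2 fold change of 0.69 ± 0.16 (adjusted p = 0.0114). Not called were members that are copies or relatives of the standard genes, among them RPL39L (-0.42), RPL26L1 (0.02) and RPL7L1 (0.05), named after their values were seen. Ribosomal protein genes have many processed pseudogenes, between which reads can be split. The direction held under each scaling tried: with library totals 67 members were higher (median 0.60) and with log2(FPKM + 0.1) 46 (median 0.49). Without WT replicate 1, WT replicate 2, XRCC4 KO replicate 1 or XRCC4 KO replicate 2, 47, 57, 53 and 56 were.

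The level of this list in irradiated XRCC4 KO was near that of untreated WT cells (9.37 and 9.72). Against those cells 21 of 81 members were higher and 1 lower, beside 22.8% and 23.5% of all genes, with a median of 0.15. The cGAS KO libraries were at 9.39 and 9.43 and the STING KO libraries at 9.15 and 9.48. Against the mean of these lines 7 of 81 members were called higher, beside 2.4% of all genes. At 3 days 79 of 82 tested members were called higher in XRCC4 KO and 0 lower, beside 28.6% of all genes, with a median of 0.93. The difference between the effects at 5 and 3 days was called for 1 member.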
